A study of Homo sapiens with 32 samples.

Results

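The genes described here carry DNA replication and the passage from G1 into S phase: origin licensing and firing factors, replicative polymerases, the sliding clamp and its loader, enzymes of nucleotide supply, chromatin assembly factors and cyclins E. They were taken from a list of 46 gene symbols, of which 43 were among the 13133 genes of the deposited table; RFC2, RPA1 and FEN1 were not in it. The mean level over all libraries was at least 5 normalized reads for 36 of the 43, and these 36 were tested; E2F1, LIG1, ORC6, PRIM1, RFC3, RFC5 and RPA3 lay below that level. GINS2 and POLD2 mark the list, and both were above 0 in all 32 libraries. The cells were HepG2, a human line from a liver tumour, and they received either medium only (NoNP) or silver nanoparticles at 1.2 ug/mL coated with citrate (CIT), with polyethylene glycol (PEG) or with the branched form of polyethylenimine (bPEI). Each exposure was sampled after 6, 12 and 24 h, which gives 12 groups, 8 with 3 libraries and 4 with 2 (NoNP and bPEI at 24 h, PEG and CIT at 6 h); further libraries were not analysed here. Gene levels were read in whole-cell lysates by TempO-Seq, in which a pair of probes is ligated on its target RNA and sequenced, so that a level depends on the probes and levels are compared within a gene only. There was 1 dose, 1 cell line and no group with the coating or with silver ions alone.

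Before S phase, ORC, CDC6 and CDT1 load the MCM helicase onto origins, which is called licensing. At the G1/S border cyclin E and CDC7 kinase activity lets CDC45 and the GINS complex join the MCM helicase, and DNA polymerases alpha, delta and epsilon then copy the strands with the clamp PCNA. Most of these genes are known targets of E2F transcription factors, whose activity rises as cells leave G1, so their RNA is widely used as a sign of how many cells in a culture are cycling.

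The promoters of these genes are shown first, as background to the results below. RefSeq promoter windows (GRCh38.p14) were found by symbol for 36 of the 43 members; MCM4, MCM5, GINS4, POLD3, RPA2, RPA3 and CCNE2 had no entry. The 250 bases before the start were searched on both strands for 2 E2F-type words, TTTCCCGC and TTTGGCGC, and for CCAAT; no word contains another. An E2F-type word was present in 15 of 47 member windows (31.9%) and in 1.93% of all 35116 windows, and CCAAT was present in 61.7% and 32%. The windows of GINS2 (chr16:85688955-85689204, minus strand) and POLD2 (chr7:44123549-44123798, minus strand) follow 5′ to 3′, with matches to either kind of word in capitals.
GINS2: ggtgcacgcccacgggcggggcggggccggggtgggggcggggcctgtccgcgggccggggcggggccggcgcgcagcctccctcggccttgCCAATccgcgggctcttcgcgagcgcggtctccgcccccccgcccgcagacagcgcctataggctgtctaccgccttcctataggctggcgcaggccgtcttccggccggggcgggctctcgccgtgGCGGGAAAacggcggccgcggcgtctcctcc
POLD2: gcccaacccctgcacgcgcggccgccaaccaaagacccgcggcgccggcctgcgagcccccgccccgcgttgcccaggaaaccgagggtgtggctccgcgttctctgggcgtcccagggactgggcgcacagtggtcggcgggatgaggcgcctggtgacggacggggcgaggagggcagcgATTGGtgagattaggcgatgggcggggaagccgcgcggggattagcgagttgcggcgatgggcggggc
The GINS2 window held 1 E2F-type word, on the reverse strand, and 1 CCAAT; the POLD2 window held 1 CCAAT on the reverse strand and neither E2F-type word. Of 15 members with a window that passed the test in NoNP between 12 and 24 h (below), 8 had an E2F-type word. These 15 include POLD2, which rose. Counted by gene, 15 of all 36 members with a window had such a word, and whether the word goes with the change over time was not tested. The stretch around the first such word is shown for the 7 besides GINS2, with the word in capitals.
CDT1: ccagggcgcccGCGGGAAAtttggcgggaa
DTL: cgtgacgtcagTTTGGCGC
MCM3: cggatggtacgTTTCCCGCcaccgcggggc
MCM7: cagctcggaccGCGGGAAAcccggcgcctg
PCNA: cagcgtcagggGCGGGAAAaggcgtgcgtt
TYMS: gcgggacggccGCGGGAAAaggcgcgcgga
UHRF1: gccgagttttcGCGGGAAAaaaatc
These stretches lie at chr16:88803743-88803772, plus strand; chr1:212035729-212035747, plus strand; chr6:52284898-52284927, minus strand; chr7:100101566-100101595, minus strand; chr20:5126663-5126692, minus strand; chr18:657603-657632, plus strand; and chr19:4909476-4909500, plus strand. A match describes letters only, and the data hold no measurement of binding.

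Libraries held 1313855 to 6735072 reads (median 3373855). All 12 hepatocyte and hepatoma markers checked, ALB among them, were above 0 in all 32 libraries. Of 5 markers of other cell types in the table, COL1A2 was at 0 in 30 libraries, COL1A1 at 0 in 15, and PECAM1 ranged from 0 to 27.1 normalized reads. CD68 and PDGFRB were above 0 throughout, at 33.9 to 216 and at 45.5 to 411 normalized reads. The 2 NoNP libraries at 24 h stood apart from each other, with a variance 2.56 times the mean of the 12 groups, and they hold few member reads: 10 of the 43 members were at 0 in replicate A and 19 in replicate B, against 1 to 12 in the other 30 libraries. Every comparison with NoNP at 24 h rests on these 2 libraries. Whether replicates are separate cultures is not stated in the labels, so a p-value here reflects the variation among these libraries, which may be technical. Changes called below passed an adjusted p of 0.05 in limma, over 9324 genes, on log2(normalized reads + 1); differences are on that log2 scale, with SE, and understate changes at low levels.

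The members' combined share of all reads was highest at 6 h and lowest at 24 h in every exposure, and at 24 h it was lowest in NoNP. In NoNP the share was 0.295%, 0.287% and 0.326% at 6 h, 0.213%, 0.202% and 0.222% at 12 h, and 0.0777% and 0.0974% at 24 h. With bPEI it was 0.35%, 0.407% and 0.382%, then 0.222%, 0.217% and 0.228%, then 0.139% and 0.171%. With PEG it was 0.366% and 0.445%, then 0.232%, 0.242% and 0.245%, then 0.117%, 0.151% and 0.189%. The 3 times did not overlap within these exposures. Shares with CIT were 0.384% and 0.445% at 6 h, 0.292%, 0.340% and 0.278% at 12 h, and 0.158%, 0.160% and 0.153% at 24 h. The 3 times did not overlap with CIT either. Coated libraries lay above all NoNP libraries at 6 h and at 24 h; at 12 h PEG and CIT lay above NoNP and bPEI overlapped it. TYMS, thymidylate synthase, which makes the thymidine nucleotide, gave 1476 and 1564 normalized reads even in NoNP at 24 h, so the share leans on the few members with many reads. In a lysate, fewer cells in S phase and less RNA per cell cannot be told apart.

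**Figure D1:**
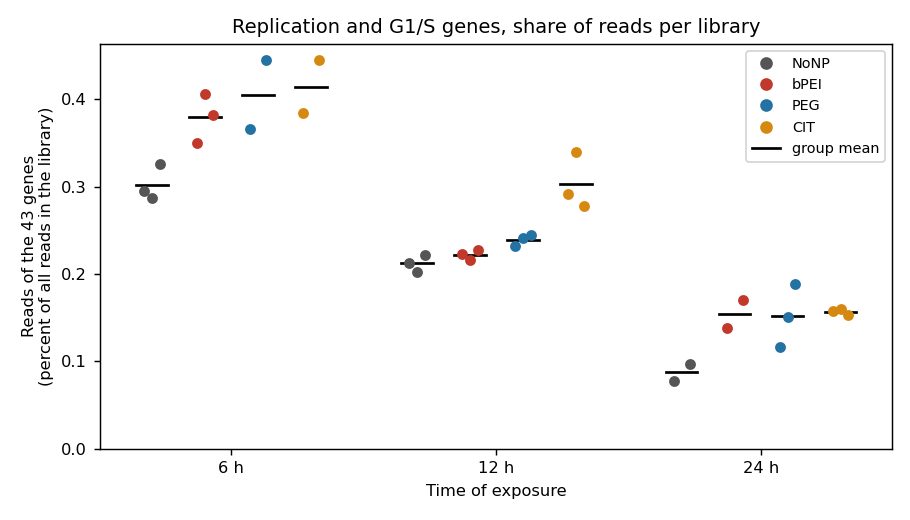
Reads of the 43 genes as percent of all reads in each library (vertical axis) by time of exposure, 1 point per library, coloured by exposure, with the group mean as a bar. The NoNP libraries at 24 h (0.0777% and 0.0974%) lie below all others.

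In cells given medium only, replication genes fell between 12 and 24 h across licensing, firing, nucleotide supply and chromatin assembly. Of 36 tested members 16 fell and 1, POLD2, rose; of all genes tested 10.2% were called lower and 8.09% higher (18.3% called in all). The median log2 difference was -1.70 over the members (-1.43 with members at 0 set to their bound) and -0.11 over all tested genes. Libraries at 24 h lay wholly below those at 12 h for 24 members, against 20.6% of all genes. When the spread was taken from these 2 groups alone, 4 members were called, GINS2, RRM2, CDT1 and TYMS. Of all 9324 genes, 152 were called there.

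Among licensing factors, CDT1, which brings the MCM helicase to origins, was at 194, 194 and 244 normalized reads at 12 h and at 41.7 and 58.7 at 24 h, a fall by 2.06 ± 0.33 (adjusted p = 3.03e-05, edgeR 8.33e-05). CDC6, the loader that acts with it, was at 39.4, 52.8 and 41.1 and then at 4.81 and 4.35, a log2 difference of -3.01 ± 0.59 (adjusted p = 0.000442, edgeR 0.00101). Neither gene's groups overlapped. The helicase subunit MCM3 was at 1355, 1176 and 1436 and then at 348 and 700, a log2 difference of -1.41 ± 0.25 (adjusted p = 0.000112, edgeR 0.000245). MCM4, another subunit, was at 104, 90.4 and 99.8 and then at 27.3 and 0 (log2 difference -4.22 ± 0.75, adjusted p = 0.000267, edgeR 0.000849). MCM2 was at 14.5, 8.98 and 12.3 at 12 h and at 0 in both libraries at 24 h, so its level was at least 4.30-fold lower (floor of 3 reads over the group; adjusted p = 0.00164, edgeR 0.0113). All 3 subunits were separated between the times, and MCM4 rested on very different values in the 2 late libraries.

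RRM2, the regulated subunit of ribonucleotide reductase, was at 353, 327 and 348 and then at 43.3 and 73.9, a log2 difference of -2.58 ± 0.32 (adjusted p = 6.13e-07, edgeR 3.17e-06). TYMS was at 3471, 3160 and 3462 and then at 1476 and 1564, a fall by 1.15 ± 0.21 (adjusted p = 0.000178, edgeR 0.000265). Both nucleotide genes were below every 12 h library at 24 h, whereas RRM1, the large reductase subunit, was at 32.5, 48.8 and 81.4 and then at 61.0 and 34.8, which overlap. DTL, a substrate receptor of the ligase that degrades CDT1 in S phase, was at 80.0, 126 and 115 and then at 11.2 and 54.4 (log2 difference -2.03 ± 0.43, adjusted p = 0.00102, edgeR 0.00532); without NoNP replicate A at 24 h its adjusted p was 0.0995. UHRF1, which keeps DNA methylation at replicated sites, was at 8.12, 2.25 and 27.1 and then at 0 in both libraries (adjusted p = 0.00283, edgeR 0.0160). Its 12 h mean of 12.5 was 4.51-fold the floor of the 24 h group, 2.77 normalized reads. The 12 h library at 2.25 lay below that floor, so this bound is for the mean and does not cover the spread among libraries. CCNE1, cyclin E1, was at 22.6, 19.1 and 17.5 and then at 3.21 and 4.35 (log2 difference -2.12 ± 0.50, adjusted p = 0.00283, edgeR 0.0153). The other members that fell were CHAF1B, MCM10, MCM7, PCNA and RPA2, of which PCNA (1 read in the 2 late libraries together) and RPA2 did not pass edgeR's test.

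The step from 6 to 12 h in NoNP was smaller. Of the 36 members 7 fell and none rose (all genes: 6.87% called lower, 11.8% in all), with a median log2 difference of -0.56 against 0.03 over all tested genes. MCM5, a helicase subunit, was at 252, 278 and 238 and then at 60.9, 43.2 and 52.5 (log2 difference -2.28 ± 0.34, adjusted p = 1.95e-05). CHAF1A, the large subunit of the histone chaperone CAF-1, was at 133, 123 and 87.8 and then at 30.7, 38.2 and 27.1 (log2 difference -1.80 ± 0.45, adjusted p = 0.00701). MCM7 was at 327, 377 and 426 and then at 153, 182 and 173 (log2 difference -1.14 ± 0.29, adjusted p = 0.00717). These 3 genes had no overlap between the times and stayed past the threshold without any 1 library, as did POLD2. UHRF1 (-2.24 ± 0.68, adjusted p = 0.0274), CCNE1 (-1.45 ± 0.44, 0.0297) and TYMS (-0.58 ± 0.19, 0.0356) fell too, but their adjusted p reached 0.241, 0.0941 and 0.161 without 1 library. For UHRF1 these libraries were B and C at 6 h and A and B at 12 h, for CCNE1 any of the 6, and for TYMS any but B at 6 h. At equal depth UHRF1 and CCNE1 were lost (0.0609 and 0.129), and with equal totals TYMS (0.0531). The count was 4 without NoNP replicate C at 6 h, or A or B at 12 h, and 13 with the spread of these groups alone. With that spread 2186 of all 9324 genes were called, against 1097 under the main setting.

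**Figure D2:**
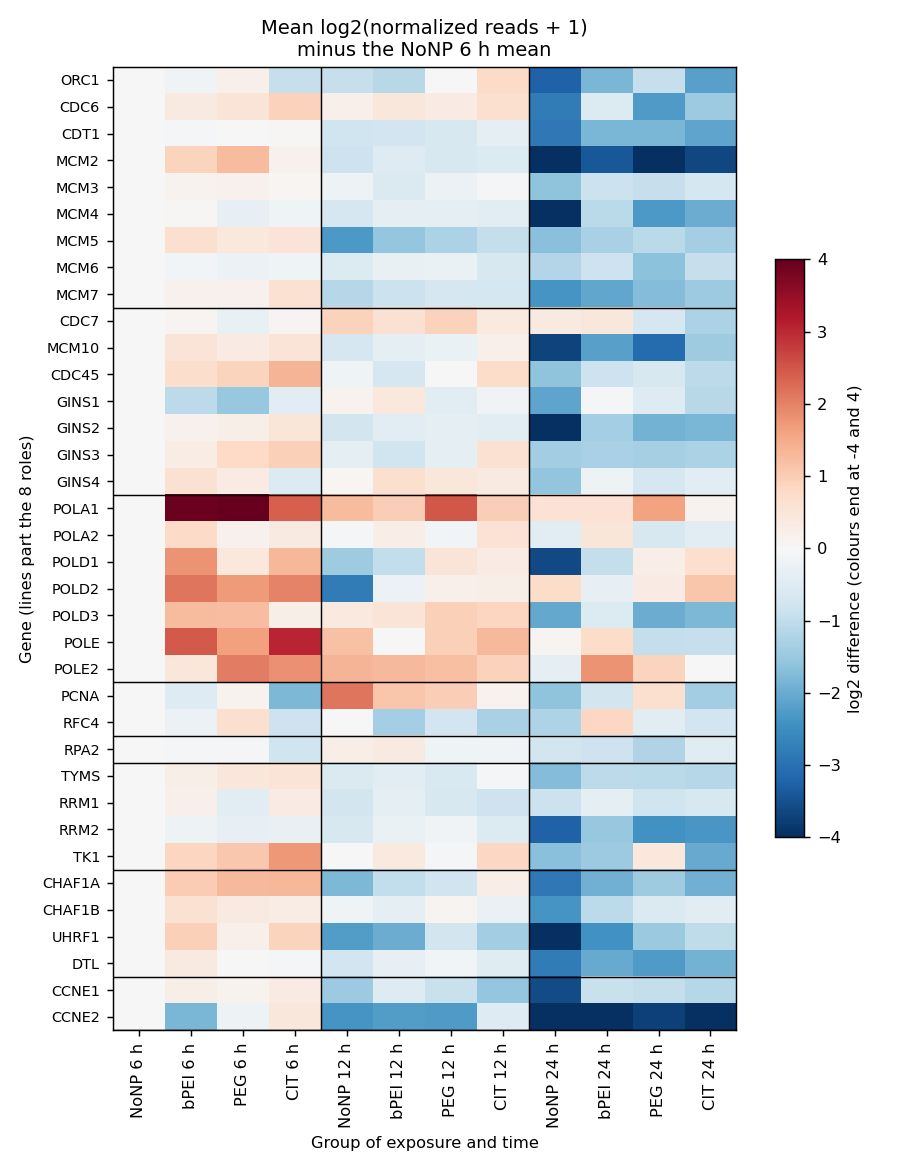
Mean log2(normalized reads + 1) of the 36 tested genes in each of the 12 groups minus the NoNP mean at 6 h, as colour from blue (lower) to red (higher), which ends at -4 and 4. Genes are ordered by role from licensing (top) to cyclins E (bottom), and most squares at 24 h are blue, with NoNP the deepest for MCM4 and GINS2.

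At 24 h several replication genes were higher in the coated cultures than in NoNP, and GINS2 had the smallest p with each coating. Called higher were 6 of 36 members with bPEI, 4 with PEG and 7 with CIT, and none was called lower; of all genes 3.05%, 2.12% and 2.80% were called higher (4.55%, 2.83% and 4.2% called in all). The median log2 difference of the members was 0.95, 0.73 and 0.66 (0.59 for CIT with members at 0 in NoNP set to their bound), against 0.10, 0.05 and 0.04 over all tested genes. Coated libraries lay wholly above NoNP for 18, 10 and 10 members, against 19.3%, 11.4% and 11.8% of all genes. The 3 comparisons share the 2 NoNP libraries, so they are given side by side and not as 3 repeats. No member was called with any coating when the spread was taken from the 2 groups compared alone. Of all 9324 genes, 1, 0 and 1 were called there. Without NoNP replicate B the PEG count was 10, without replicate A it was 7, and without bPEI replicate B at 24 h the bPEI count was 3. edgeR called 5, 3 and 4 members.

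GINS2, a subunit of the GINS complex that switches on the helicase, was at 3.21 and 4.35 normalized reads in NoNP at 24 h, which is 2 libraries with 4 reads between them. It was at 81.4 and 55.6 with bPEI, at 42.5, 61.1 and 37.2 with PEG and at 56.2, 71.4 and 27.1 with CIT. All coated libraries were above both NoNP libraries. The log2 difference was 3.85 ± 0.39 with bPEI (18.1-fold in means, adjusted p = 4.75e-08, edgeR 1.83e-05), 3.31 ± 0.36 with PEG (12.4-fold, 7.03e-07, edgeR 0.000324) and 3.36 ± 0.36 with CIT (13.6-fold, 2.44e-07, edgeR 0.000178). Over leaving out each library in turn, the log2 difference was 3.58 to 4.12 with bPEI, 3.10 to 3.48 with PEG and 3.08 to 3.76 with CIT. Without 1 NoNP or 1 bPEI library a group of 1 is left, whose spread comes from the other groups, so these fits give effect sizes only. With the spread of the compared groups alone GINS2 did not pass (limma adjusted p = 0.784, 0.602 and 0.369).

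CCNE1, which with CDK2 starts S phase, was at 3.21 and 4.35 in NoNP, 33.8 and 25.4 with bPEI, 20.7, 29.7 and 36.7 with PEG and 29.1, 15.4 and 33.2 with CIT. In the NoNP libraries A and B 1 read stands for 1.60 and 2.17 normalized reads, so CCNE1, like GINS2 above and CDC6 below, rests on few reads there. CCNE1 was higher in all 8 coated libraries, by 2.67 ± 0.54 (adjusted p = 0.00263, edgeR 0.0128), 2.62 ± 0.50 (0.00218, edgeR 0.0180) and 2.44 ± 0.50 (0.00345, edgeR 0.0273). With libraries thinned to equal depth the CCNE1 call with CIT was lost (0.0658). UHRF1 was at 0 in both NoNP libraries, 8.66 and 6.18 with bPEI, 4.59, 29.7 and 22.2 with PEG and 18.7, 14.0 and 34.4 with CIT. Its level was at least 2.68-fold, 6.80-fold and 8.08-fold higher (adjusted p = 0.0272, 0.00225 and 0.000447, edgeR 0.121, 0.0334 and 0.0193), and with bPEI the call was lost without NoNP replicate B or either bPEI library (adjusted p up to 0.153), at equal depth (0.242), with a pseudocount of 5 (0.258) and without both outlying libraries (0.0635). POLD1, the catalytic subunit of polymerase delta, was at 0 in both NoNP libraries, 12.1 and 2.06 with bPEI, 9.18, 17.5 and 16.1 with PEG and 33.3, 25.2 and 7.38 with CIT. It was called with PEG (at least 5.15-fold, adjusted p = 0.0165, edgeR 0.101) and with CIT (at least 7.93-fold, 0.00650, edgeR 0.0493), and the PEG call was lost without PEG replicate B or C (up to 0.0638) and with a pseudocount of 5 (0.0946). At equal depth neither POLD1 call passed (0.112 with PEG and 0.0587 with CIT).

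RRM2 was at 43.3 and 73.9 in NoNP and at 203 and 174 with bPEI, which do not overlap (log2 difference 1.72 ± 0.35, adjusted p = 0.00261, edgeR 0.00432). With PEG it was at 115, 133 and 63.9 and with CIT at 127, 99.4 and 94.7, and neither passed. MCM4 was at 27.3 and 0 in NoNP, 60.6 and 87.9 with bPEI, 37.9, 26.2 and 29.5 with PEG and 14.6, 57.4 and 64.0 with CIT. It was called with bPEI (3.80 ± 0.82, adjusted p = 0.00639, edgeR 0.0200) and with CIT (2.87 ± 0.75, 0.0263, edgeR 0.129), though CIT overlapped NoNP, and without NoNP replicate B, the library at 0, the adjusted p was 0.187 and 0.638. The bPEI call was also lost without bPEI replicate B (0.0992), and the CIT call without CIT replicate B (0.0919) or C (0.0846). CDC6 was at 4.81 and 4.35 in NoNP and at 20.8 and 30.9 with bPEI (2.24 ± 0.64, adjusted p = 0.0382, edgeR 0.0464); without NoNP replicate B or either bPEI library the adjusted p was up to 0.289, and with no filter on low genes it was 0.0511. MCM3 was at 348 and 700 in NoNP and at 920, 878 and 988 with CIT (0.91 ± 0.25, 1.77-fold, adjusted p = 0.0286, edgeR 0.0612). CHAF1B, a small subunit of CAF-1, was at 11.2 and 4.35 in NoNP and at 24.98, 36.4 and 28.3 with CIT (1.92 ± 0.56, adjusted p = 0.0428, edgeR 0.138). Both CIT calls were lost without any 1 of the CIT libraries and without 1 NoNP library, A for MCM3 (0.384) and B for CHAF1B (0.225). Both were also lost at equal depth (0.0690 and 0.160), and CHAF1B with no filter (0.0566), a pseudocount of 5 (0.0691) or a replicate block (0.0553). The members not called ranged from -1.08 (POLD2) to 2.66 (POLD1) with bPEI, from -1.08 (POLE) to 2.58 (MCM4) with PEG and from -1.62 (CDC7) to 2.27 (MCM10) with CIT.

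**Figure D3:**
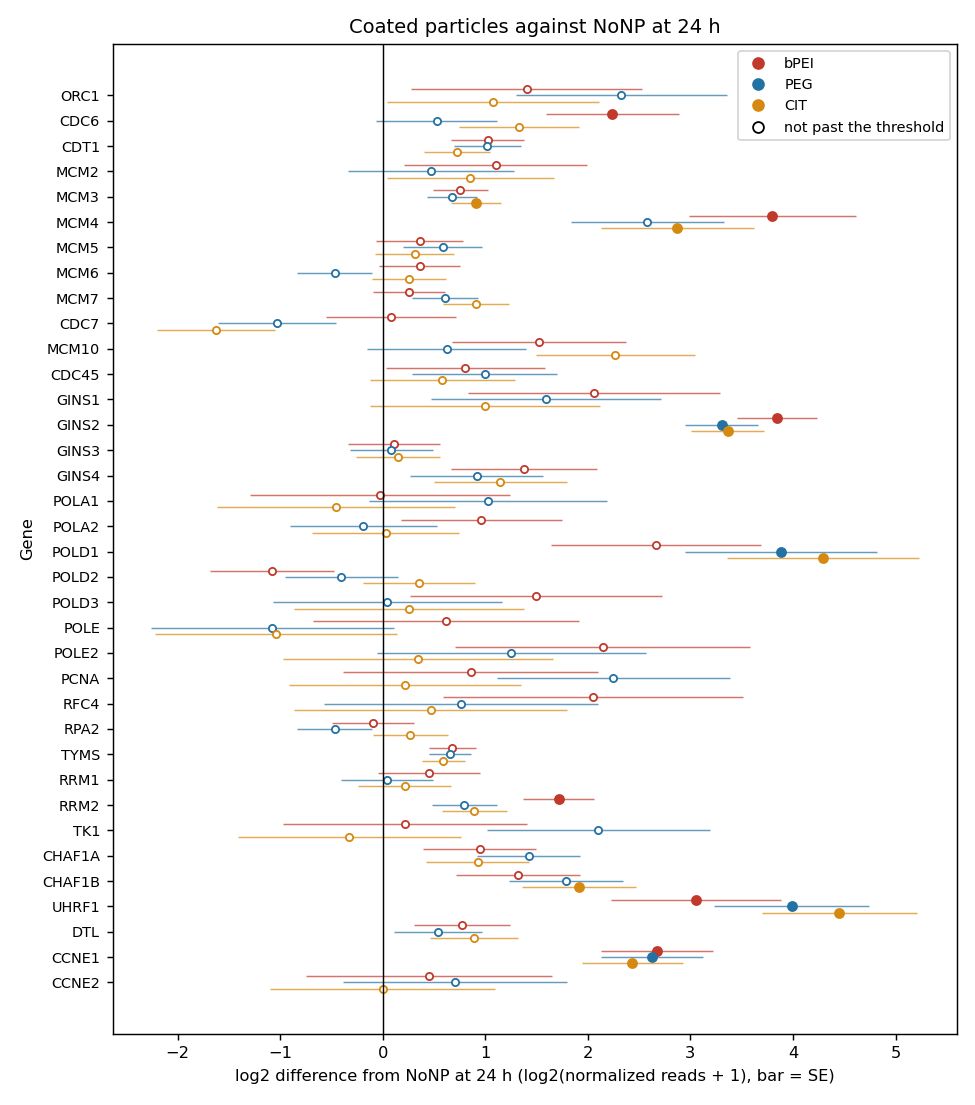
log2 difference from NoNP at 24 h of each tested gene (horizontal axis; bars are SE) with bPEI, PEG and CIT, filled where past the threshold and open where not. GINS2 is filled for all 3 coatings, at 3.85, 3.31 and 3.36, and most points lie right of 0.

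GINS2 also had the smallest p among the members for a difference between exposures in the course over time. The test of the interaction of exposure and time, an F test over 6 contrasts, called 1 of 36 members, GINS2 (adjusted p = 0.000262, edgeR 0.0186), against 0.665% of all genes. In NoNP GINS2 was at 121, 194 and 222 at 6 h, at 96.8, 98.2 and 118 at 12 h and at 3.21 and 4.35 at 24 h, a fall by 4.47 ± 0.36 in the last step (adjusted p = 1.46e-10, edgeR 1.24e-07). With bPEI it was at 163, 210 and 224, then at 115, 148 and 124, then at 81.4 and 55.6. With PEG it was at 222 and 188, then at 139, 123 and 138, then at 42.5, 61.1 and 37.2. With CIT it was at 203 and 288, then at 163, 135 and 97.1, then at 56.2, 71.4 and 27.1. Every exposure thus had lower GINS2 at 24 h than at 12 h, without overlap, and in the coated groups the 24 h values lay between 27.1 and 81.4. The step from 12 to 24 h differed from that of NoNP by 3.55 ± 0.51 with bPEI (adjusted p = 0.000119, edgeR 0.00162), 2.95 ± 0.48 with PEG (0.00188, edgeR 0.0195) and 3.05 ± 0.48 with CIT (0.000438, edgeR 0.00522); 0.343%, 0.215% and 1.15% of all genes were called in these tests (higher: 0.257%, 0.15% and 0.654%). With the spread of the compared groups alone the PEG and CIT differences did not pass (adjusted p = 0.195 and 0.0659) and the bPEI difference did. The interaction count was 4 without NoNP replicate A at 24 h and 2 without bPEI replicate A at 24 h.

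POLD2, the second subunit of polymerase delta, followed another course. In NoNP it was at 26.8, 17.2 and 33.5 at 6 h, at 1.16, 4.49 and 3.5 at 12 h and at 25.7 and 69.6 at 24 h. It fell by 2.79 ± 0.49 in the first step (adjusted p = 0.000179, edgeR 0.000154) and rose by 3.53 ± 0.55 in the second (adjusted p = 2.55e-05, edgeR 1.97e-05), so that the 12 h libraries lay below both other times. With bPEI it was at 108, 135 and 99.6, then at 17.1, 26.3 and 20.7, then at 36.4 and 10.3. With PEG it was at 81.0 and 84.3, then at 28.3, 24.5 and 35.3, then at 19.5, 34.9 and 46.7. With CIT it was at 68.3 and 154, then at 28.8, 32.3 and 27.6, then at 39.5, 77.0 and 52.9. Coated libraries were above all NoNP libraries at 6 h and at 12 h and overlapped them at 24 h. The step from 12 to 24 h differed from that of NoNP by -3.63 ± 0.78 with bPEI (adjusted p = 0.0259, edgeR 0.0277) and by -3.40 ± 0.74 with PEG (0.0303, edgeR 0.0249), where 0.0858% and 0.0644% of all genes were called lower, and with CIT it did not pass (-2.67, adjusted p = 0.0688, edgeR 0.0475). Neither call was stable: 5 of 10 left-out libraries ended the bPEI call (adjusted p up to 0.414) and 6 of 11 the PEG call (up to 0.127). Both calls were also lost at equal depth (adjusted p = 0.104 and 0.247), with a pseudocount of 5 (0.0704 and 0.104), without both outlying libraries, the B replicates of bPEI at 6 h and NoNP at 24 h (0.0910 and 0.0861), and with the spread of the compared groups alone (0.310 and 0.486). The single libraries for bPEI were NoNP A at 12 h and B at 24 h and bPEI B and C at 12 h and B at 24 h; for PEG they were the same NoNP libraries, PEG A and C at 12 h and PEG A and B at 24 h.

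**Figure D4:**
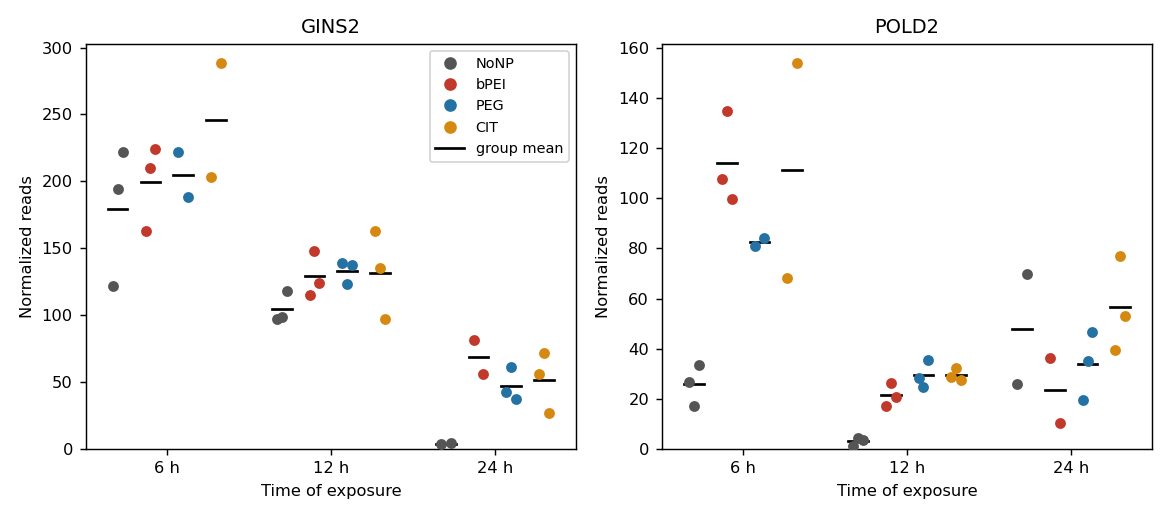
Normalized reads of GINS2 (left) and POLD2 (right) in each library by time of exposure, coloured by exposure, with group means as bars. GINS2 is at 3.21 and 4.35 in NoNP at 24 h and at 27.1 or more in every coated library, and POLD2 is lowest in NoNP at 12 h (1.16 to 4.49).

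At 6 and 12 h few members differed from NoNP, and POLD2 was the recurrent one. With bPEI at 6 h 2 of 36 members were higher (all genes: 0.686% called higher, 2.01% in all), with a median log2 difference of 0.32 against -0.01 over all genes. POLD2 differed by 2.14 ± 0.49 (adjusted p = 0.0256, edgeR 0.0267). POLA1, the catalytic subunit of polymerase alpha, was at 3.83, 0 and 1.10 in NoNP and at 25.6, 34.2 and 37.8 with bPEI (3.94 ± 1.04, adjusted p = 0.0405, edgeR 0.0981). Neither gene's libraries overlapped, but both calls were lost without any 1 NoNP library or without bPEI replicate B, at adjusted p up to 0.155 and 0.197. At equal depth POLD2 was at 0.0513. POLA1 gave no value there, so none of the POLA1 calls was tested at equal depth. With PEG at 6 h no member was called by limma or edgeR, 4 had an unadjusted p under 0.05, and the smallest were POLA1 (4.06 ± 1.16, adjusted p = 0.265) and POLD2 (1.69 ± 0.55, 0.403); 0.0215% of all genes were called. With CIT at 6 h none was called by either tool, 7 had an unadjusted p under 0.05, and the smallest were POLD2 (2.0 ± 0.55, adjusted p = 0.137) and CHAF1A (1.33 ± 0.50, 0.305); 0.279% of all genes were called. The members' medians were 0.28 with PEG and 0.34 with CIT, against 0.01 and -0.00 over all genes. All 7 tested polymerase genes had a positive difference with each of the 3 coatings at 6 h, in comparisons that share their NoNP libraries. Over all 36 tested members 27, 28 and 26 differences were positive with bPEI, PEG and CIT. The 2 tested clamp and loader genes had negative differences with bPEI and CIT and positive ones with PEG.

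At 12 h POLD2 was called with each coating. It differed from NoNP by 2.55 ± 0.49 with bPEI (7.0-fold in means, adjusted p = 0.0339, edgeR 0.0243), by 3.0 ± 0.49 with PEG (9.63-fold, 0.00232, edgeR 0.00326) and by 3.02 ± 0.49 with CIT (9.70-fold, 0.000438, edgeR 0.000486). The bPEI call was lost without NoNP replicate A or B or bPEI replicate B or C (adjusted p up to 0.329), at equal depth (0.224) and with a pseudocount of 5 (0.0867), and the PEG and CIT calls held without any 1 library. No other member was called with bPEI or PEG (all genes: 0.0965% and 0.654% called, 0.0429% and 0.279% higher), and their medians were 0.25 and 0.24. With CIT 3 of 36 members were called, all higher (all genes: 3.88% higher, 6.12% in all), with a median of 0.30 against -0.02 over all genes. CHAF1A was at 30.7, 38.2 and 27.1 in NoNP and at 138, 131 and 135 with CIT, without overlap (2.05 ± 0.45, 4.20-fold, adjusted p = 0.00543, edgeR 0.000976). MCM5 was at 60.9, 43.2 and 52.5 and at 152, 138 and 111 (1.34 ± 0.34, 2.56-fold, adjusted p = 0.0163, edgeR 0.00881), and its call was lost without NoNP replicate B (0.0975) or CIT replicate A (0.0608) or B (0.0704). Both genes are among those that fell in NoNP between 6 and 12 h.

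The median of the replication genes fell over time in the coated cultures too. Between 6 and 12 h 10 members fell with bPEI, 3 with PEG and 3 with CIT (all genes called lower: 13.2%, 5.51% and 2.64%; called in all: 28.7%, 9.82% and 5.08%), and none rose. The PEG count was near the share of all genes called lower. All 10 bPEI calls were lower, so they compare with the 13.2% of all genes called lower, and their share of the 36 members was above it. The members' medians were -0.72, -0.61 and -0.52, against 0.01, 0.00 and 0.01 over all genes. MCM5 fell with each coating, from 373, 367 and 448 to 52.1, 124 and 97.8 with bPEI (-2.19 ± 0.34, adjusted p = 2.25e-05), from 319 and 370 to 97.7, 95.7 and 129 with PEG (-1.68 ± 0.38, 0.00451) and from 317 and 416 to 152, 138 and 111 with CIT (-1.45 ± 0.38, 0.0196). CHAF1A fell with bPEI (-2.02 ± 0.45, adjusted p = 0.00116) and PEG (-2.10 ± 0.50, 0.00703). TYMS fell with bPEI, from 5584, 6958 and 5438 to 3747, 3504 and 3751 (-0.70 ± 0.19, adjusted p = 0.00505), and with PEG, from 6548 and 7323 to 3447, 3072 and 3326 (-1.08 ± 0.21, 0.000871). MCM7 fell with bPEI (-1.06 ± 0.29, adjusted p = 0.00624) and CIT (-1.29 ± 0.32, 0.0119), and CCNE1 with CIT (-1.85 ± 0.50, 0.0217). POLD2 (-2.37 ± 0.49, adjusted p = 0.000564), UHRF1 (-2.94 ± 0.68, 0.00155), MCM3 (-0.73 ± 0.22, 0.0124), POLD1 (-2.76 ± 0.84, 0.0134), GINS3 (-1.10 ± 0.36, 0.0221) and POLA1 (-2.94 ± 1.04, 0.0315) also fell with bPEI. Without 1 library the adjusted p reached 0.0520 for MCM3 (bPEI replicate B at 12 h), 0.103 for POLD1 (B at 6 h, C at 12 h), 0.0767 for GINS3 (A or C at 6 h, B or C at 12 h) and 0.226 for POLA1 (B or C at 6 h, A at 12 h). POLA1 did not pass edgeR's test (0.0943), GINS3 did not pass at equal depth (0.0525), and POLD1 and POLA1 did not pass without both outlying libraries (0.0813 and 0.0568). With PEG, MCM5 and CHAF1A were lost without PEG replicate C at 6 h (adjusted p = 0.0666 and 0.0985; count 1), and with CIT the count was 0 without replicate A and 1 without replicate C at 6 h. CCNE1 with CIT was also lost without A or B at 12 h (0.0889 and 0.0767), and MCM5 without C at 12 h (0.0849).

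Between 12 and 24 h 4 members fell with bPEI, 14 with PEG and 13 with CIT, and none rose (all genes called lower: 1.62%, 7.35% and 6.38%; called in all: 3.37%, 14.8% and 11.7%). The medians were -0.62, -0.90 and -1.25, against 0.00, -0.01 and -0.03 over all genes. RRM2 fell with each coating, from 386, 499 and 458 to 203 and 174 with bPEI (-1.24 ± 0.32, adjusted p = 0.0232, edgeR 0.0174), from 474, 481 and 514 to 115, 133 and 63.9 with PEG (-2.29 ± 0.28, 1.45e-06, edgeR 1.15e-06) and from 394, 340 and 379 to 127, 99.4 and 94.7 with CIT (-1.79 ± 0.28, 6.26e-05, edgeR 5.2e-05). DTL fell from 156, 135 and 136 to 45.9 and 41.2 with bPEI (-1.68 ± 0.43, adjusted p = 0.0222, edgeR 0.0123), from 175, 175 and 157 to 36.7, 45.4 and 30.0 with PEG (-2.16 ± 0.38, 0.000182, edgeR 7.12e-05) and from 105, 116 and 176 to 35.4, 33.6 and 88.6 with CIT (-1.43 ± 0.38, 0.0129, edgeR 0.0149). Neither gene overlapped between the times in any coating. MCM2 fell with each coating as well, to 1.73 and 0.687 with bPEI (adjusted p = 0.0398, edgeR 0.0365), to 0, 0 and 1.67 with PEG (0.00137, edgeR 0.00338) and to 0, 0 and 4.92 with CIT (0.00429, edgeR 0.0236), which are 3 to 4 reads over a group. MCM7 fell with bPEI (-1.22 ± 0.32, adjusted p = 0.0266, edgeR 0.0217) and PEG (-1.07 ± 0.29, 0.0101, edgeR 0.0104).

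With PEG and CIT the licensing factors CDC6 (-2.58 ± 0.53 and -2.10 ± 0.53; adjusted p = 0.000787 and 0.00761, edgeR 0.00206 and 0.00436) and CDT1 (-1.17 ± 0.29 and -1.75 ± 0.29; 0.00552 and 0.000125, edgeR 0.00509 and 0.000174) fell. GINS2 fell by 1.51 ± 0.32 and 1.41 ± 0.32 (adjusted p = 0.00118 and 0.00328, edgeR 0.000790 and 0.00322), a smaller step than in NoNP by the test given above. MCM6 (-1.38 ± 0.33, adjusted p = 0.00347, edgeR 0.00444), MCM10 (-2.80 ± 0.69, 0.00683, edgeR 0.00329) and MCM3 (-0.72 ± 0.22, 0.0240, edgeR 0.0377) fell with PEG, and RPA2, CDC7, POLD3 (groups overlap, edgeR 0.200) and MCM4 also passed there. TYMS (-1.08 ± 0.19, adjusted p = 0.000163, edgeR 0.000132), GINS3 (-1.85 ± 0.36, 0.000856, edgeR 0.000651) and CHAF1A (-2.18 ± 0.45, 0.00137, edgeR 0.000425) fell with CIT, and CDC7 (edgeR 0.0981), ORC1 (edgeR 0.195) and MCM3 also passed there. CCNE2, cyclin E2, was at 14.8, 9.61 and 19.9 with CIT at 12 h and at 0 in all 3 libraries at 24 h, at least 9.88-fold lower (adjusted p = 0.00722, edgeR 0.0177). Without CIT replicate B at 24 h the adjusted p was 0.0567 for CDC6, and without 1 library it reached 0.0796 for DTL with CIT (C at 12 h, A or B at 24 h). With PEG it reached 0.0562 for CDT1 (C at 24 h) and 0.0535, 0.0615 and 0.204 for MCM10, MCM7 and MCM3 (A at 24 h, and for MCM3 also B or C at 12 h). At equal depth CDC6 and DTL with CIT (0.0560 and 0.0567) and MCM2 with bPEI (0.298) did not pass, nor did MCM2 with no filter (0.0555) or a replicate block (0.0547). The bPEI count was 0 or 1 without any 1 library, with adjusted p up to 0.220 for DTL, 0.261 for RRM2, 0.403 for MCM7 and 0.342 for MCM2 without B at 24 h, and the PEG count was 7 without replicate A at 24 h and 9 without replicate B at 12 h.

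**Figure D5:**
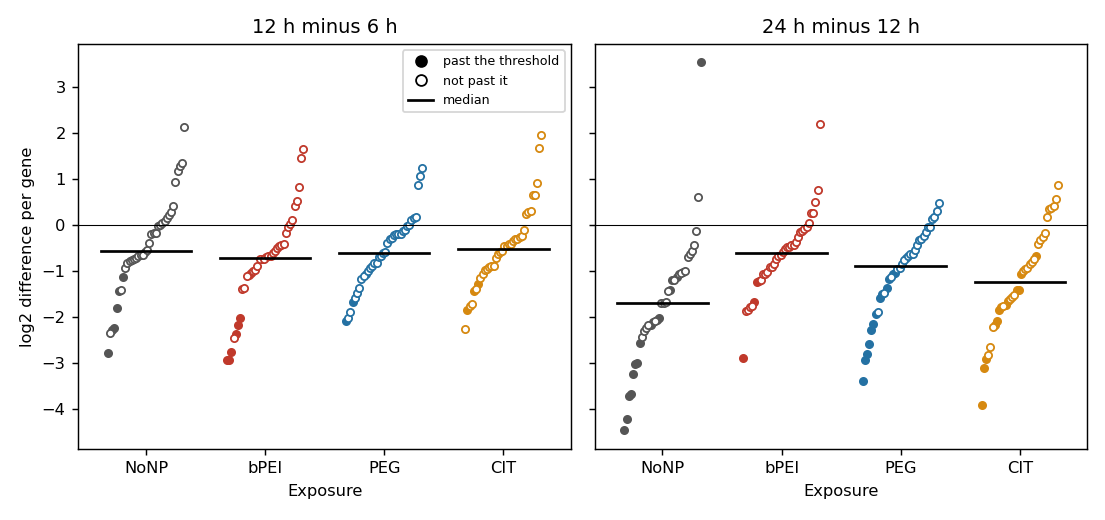
log2 difference of each tested gene between 12 and 6 h (left) and between 24 and 12 h (right) in each exposure, filled where past the threshold, with the median as a bar. Between 12 and 24 h the medians are -1.70 in NoNP, -0.62 with bPEI, -0.90 with PEG and -1.25 with CIT, and the lone filled point above 0 is POLD2 in NoNP.

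The 3 coatings were compared with each other by an F test at each time and in 9 pairs. No member was called by the F test at 6, 12 or 24 h (all genes: 0.107%, 0.418% and 0.15%), where 0, 3 and 6 members had an unadjusted p under 0.05 and edgeR called 0, 1 and 0. In the pairs 1 member was called, GINS3, a GINS subunit, which at 12 h was at 48.0, 37.2 and 40.1 with bPEI and at 160, 90.9 and 94.9 with CIT. These do not overlap, and the log2 difference was 1.40 ± 0.36 (adjusted p = 0.0429, edgeR 0.0202; 1.39% of all genes called, 0.933% higher); without any 1 of the 6 libraries the adjusted p was 0.0696 to 0.190, at equal depth it was 0.103 and with no filter 0.0616. The PEG libraries lay at 39.5, 59.8 and 76.5. In the other 8 pairs limma and edgeR called no member, and 0 to 4 had an unadjusted p under 0.05. Of all genes, 0.0751% were called between CIT and bPEI at 6 h, and 0.182% at 24 h. PEG against bPEI gave 0.0536% at 24 h and 0.0215% at 12 h, CIT against PEG gave 0.0107% and 0.0215%, and PEG against either at 6 h gave 0%. These results do not show that the coatings act alike. For GINS2 at 24 h the values with the 3 coatings spanned 27.1 to 81.4, but the CIT libraries alone covered most of this range. The span is therefore no sign of a difference between coatings.

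Genes next to these in the pathway were counted on 2 further lists. Of 25 tested among 34 other replication factors in the table, 11 fell in NoNP between 12 and 24 h and none rose (median -0.73; edgeR called 11; all genes 10.2% lower). At 24 h 4, 3 and 2 were higher than NoNP with bPEI, PEG and CIT and none lower (medians 0.44, 0.10 and 0.28), against 3.05%, 2.12% and 2.80% of all genes, and edgeR called 2 with each coating. HELLS, a chromatin remodeller, averaged 105 in NoNP at 12 h and 4.01 at 24 h, and 42.4, 37.7 and 32.4 with bPEI, PEG and CIT at 24 h (log2 difference 3.85 ± 0.63, 3.68 ± 0.58 and 3.39 ± 0.58; adjusted p = 0.000221, 0.000251 and 0.000447, edgeR 0.00606, 0.0165 and 0.0278). ASF1B, a histone chaperone, averaged 32.4 in NoNP and 165, 112 and 116 with the coatings (adjusted p = 0.00193, 0.0254 and 0.0118, edgeR 0.00395, 0.0328 and 0.0304). Of 20 tested among 24 other G1/S regulators in the table, 7 fell in NoNP between 12 and 24 h (median -0.83; edgeR called 7). At 24 h 3 were higher with each coating, with CDKN1B lower with bPEI and E2F5 lower with CIT, and edgeR called 2, 2 and 3 in either direction. The list as a whole was not shifted alike. Its medians were 0.32, -0.02 and -0.11, and 11, 10 and 9 of the 20 had a positive difference with bPEI, PEG and CIT. MYBL2, a transcription factor of the cell cycle, averaged 6.24 in NoNP and 45.6, 79.9 and 46.2 with the coatings (log2 difference 3.04 ± 0.50, 3.79 ± 0.46 and 3.01 ± 0.46; adjusted p = 0.000221, 2.98e-06 and 9.3e-05, edgeR 0.00420, 0.000324 and 0.00524). CDKN1B, the cyclin E-CDK2 inhibitor p27, averaged 534 in NoNP and 241 with bPEI (-1.16 ± 0.29, adjusted p = 0.0145, edgeR 0.0284).

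The 7 members below the level for testing were low throughout. E2F1, the first described E2F factor, was at 0 in 28 of the 32 libraries and reached 6.73 normalized reads. ORC6 reached 9.42, PRIM1 11.8, RFC3 15.1, RFC5 17.5, RPA3 13.7 and LIG1 15.4 normalized reads in their highest library, and in NoNP at 24 h ORC6, PRIM1, LIG1 and E2F1 were at 0 in both libraries.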

How the data were processed

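TempO-Seq libraries of HepG2 lysates were deposited as 1 table of 13133 genes and 32 libraries. The authors' deposited values are a normalized signal, each library's reads divided by 1 factor; the sources used here do not name the aligner, the counting, the build or how probes were combined. Whole reads were recovered for 100% of values (tolerance 0.01 reads), so depths are known. Since the values were not raw counts, limma 3.58.1 (R 4.3.3; trend and robust) was fitted to log2(value + 1) over 12 groups, with 20 residual degrees of freedom, on 9324 genes with a mean of at least 5 (3809 left out), and p-values were Benjamini-Hochberg adjusted over all of them. edgeR 4.0.16 (quasi-likelihood, TMM) on the recovered reads was an alternative. On simulated data limma made more false calls at 24 h than its threshold allows, so edgeR's adjusted p stands beside 24 h calls. Tests covered 9 differences from NoNP, 8 time steps, 9 pairs of coatings, F tests among coatings, and the interaction. Named were GINS2, POLD2 and every member called against NoNP, among coatings or in the interaction; in time steps the 10 called members with the smallest p; where none was called against NoNP, the 2 smallest; and up to 4 genes of other lists. Further called members are listed by name after their values were seen, as are RRM1 and the members below the filter. Members and lists were chosen with earlier results of these data known. The SE values come from the fitted variation among libraries, and floors (3 reads) cover counting error only. Other settings were another pseudocount, no filter, equal totals, a replicate block, the spread of the compared groups alone, edgeR, leaving out libraries and, chosen after seeing the data, equal depth.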

Additional observations from a re-analysis of the deposited data

Results flagged for a closer look

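For GINS2 the exposures differed in their course over time by a direct test (interaction F test, limma adjusted p = 0.000262). Its log2 step from 12 to 24 h differed from that of NoNP by 3.55 with bPEI, 2.95 with PEG and 3.05 with CIT, and all 3 differences share the NoNP libraries, which held 4 GINS2 reads at 24 h. For POLD2 the same step differed in the other direction, by -3.63 with bPEI and -3.40 with PEG. The POLD2 differences rest on NoNP values of 1.16 to 4.49 normalized reads at 12 h. With all libraries at equal depth they were -3.24 and -2.70 and no longer passed (adjusted p = 0.104 and 0.247).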

How the results depend on the processing

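No result reversed. Counts of members called that moved by more than 1.5 times are given by setting; smaller moves are not listed, except under leaving out 1 library and the replicate block. When the spread came from the compared groups alone they were 0, 2 and 2 for bPEI, PEG and CIT against NoNP at 6 h, 0 for each at 24 h (GINS2 adjusted p = 0.784, 0.602 and 0.369), 13 and 4 for the NoNP steps to 12 and to 24 h, 9 for bPEI from 12 to 24 h, 5 for PEG and 5 for CIT from 6 to 12 h, and 3 among coatings at 12 h; the interaction was not run there. With edgeR they were 1 (bPEI, 6 h), 4 (CIT, 24 h), 5 (CIT, 6 to 12 h) and 1 (coatings, 12 h). At equal depth they were 0 and 0 (bPEI, 6 and 12 h) and 3 (CIT, 24 h). With a pseudocount of 5 they were 0 (bPEI, 12 h) and 5 (CIT, 6 to 12 h), and with equal totals 8 (PEG, 24 h), where the median of all genes moved from 0.05 to 0.18. Without both outlying libraries (the B replicates of bPEI at 6 h and of NoNP at 24 h) they were 1, 2 and 2 at 6 h, 5 (CIT, 12 h), 12 (PEG, 24 h), 7 (bPEI, 12 to 24 h), 6 and 7 (PEG and CIT, 6 to 12 h), 2 (coatings, 12 h) and 3 (interaction). Leaving out 1 library gave 0 to 2 (bPEI, 6 h), 0 (PEG and CIT, 6 h), 0 to 1, 1 and 2 to 4 (bPEI, PEG and CIT, 12 h), and 3 to 8, 3 to 10 and 5 to 10 (24 h). For the steps it gave 4 to 6 and 15 to 17 (NoNP), 8 to 9 and 0 to 1 (bPEI), 1 to 4 and 7 to 12 (PEG), 0 to 3 and 10 to 11 (CIT). It gave 0 among coatings and 1 to 4 for the interaction. For CIT against bPEI at 12 h the count was 4 with the compared groups' spread and without both outlying libraries, and 0 at equal depth and with no filter. For the step from 12 to 24 h minus that of NoNP, the counts for bPEI, PEG and CIT were 1, 0 and 0 with the compared groups' spread, and 1, 1 and 1 at equal depth and with a pseudocount of 5; for CIT the count was 2 with edgeR, with equal totals and without both outlying libraries. The cause of these moves was not tested. With group means removed, the median correlation of same-letter libraries was 0.0057 over 156 pairs, of which 18 were over 0.1 (largest 0.315). For other-letter libraries it was -0.0033 over 312 pairs, of which 20 were over 0.1 (largest 0.286). Pairs over 0.1 were thus more frequent among same-letter libraries, though the medians were near 0. With a replicate block the counts were 16 (NoNP, 12 to 24 h), 6 (CIT, 24 h), 4 (CIT, 6 to 12 h) and 3 (bPEI, 12 to 24 h), and the others were as reported. Of 284 medians of members recomputed, 268 moved by less than the spread between replicates and 16 by more. Depth limits members with few reads, since 3 reads stand for 1.38 to 7.15 normalized reads.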

Other observations

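Genes of G2 and mitosis moved in the same comparisons at 24 h. Of 24 tested among 26 such genes in the table, 23 fell in NoNP between 12 and 24 h and none rose (limma; median log2 difference -2.66; edgeR called 20; all genes 10.2% lower), whereas none was called between 6 and 12 h (5 had an unadjusted p under 0.05; edgeR called 0). At 24 h 8, 4 and 7 were higher than NoNP with bPEI, PEG and CIT and none lower, with medians of 1.65, 0.86 and 1.03, against 3.05%, 2.12% and 2.80% of all genes; edgeR called 8, 2 and 3. HMMR, a spindle protein, averaged 54.3 normalized reads in NoNP and 288, 160 and 207 with the coatings (limma adjusted p = 0.000113, 0.0115 and 0.00117; edgeR 0.000248, 0.0183 and 0.00411). CCNB1, cyclin B1, averaged 5.62 in NoNP and 44.1, 20.4 and 28.9 (limma adjusted p = 0.00127, 0.0197 and 0.00382; edgeR 0.0164, 0.241 and 0.0831). These comparisons share the same 2 NoNP libraries as those of the replication genes.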
